A study of Homo sapiens with 4 samples.

Results

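The genes described here encode the claudins, the other membrane and plaque proteins of the tight junction, the desmosomal cadherins and their plaque proteins, and 2 catenins of the adherens junction. They were 39 genes chosen by name, and all 39 had probes among the 25117 genes with a symbol on the arrays. They were read by 54 probes, with 1 probe for 26 genes, 2 probes for 11 genes and 3 probes for 2 genes. PC3 and DU145 are established prostate cancer cell lines that grow without androgen. Each carried an shRNA against luciferase (PC3-shC and DU145-shC) or an shRNA against ESS2 (PC3-shESS2 and DU145-shESS2), delivered by lentivirus according to the sample labels. ESS2 is a nuclear protein known as a transcriptional coregulator and splicing-associated factor. The comparisons ask how the junction genes differ between the lines and what ESS2 knockdown does to them in each. Each of the 4 conditions had 1 one-colour Agilent array, so no difference within a line has a replicate check. The labels do not say whether a line was 1 clone or a selected pool.

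Tight junctions seal the space between epithelial cells near the apical surface. Claudins set which ions pass, occludin and its relatives share the MARVEL fold, and plaque proteins such as TJP1 and CGN tie the strands to actin. Desmosomes are spot-like contacts in which desmogleins and desmocollins bind those of the next cell, and plakoglobin (JUP), plakophilins and desmoplakin (DSP) link them to keratin filaments. Alpha-catenin (CTNNA1) connects cadherin complexes to actin, and CTNND1 (p120) holds cadherins at the membrane. Repressors of the SNAI and ZEB families are known to bind E-box motifs at several epithelial junction genes.

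Promoter sequence was compared because several of these genes differed together between the lines and after knockdown. RefSeq windows of 300 bases, from 250 before to 50 after an annotated start (GRCh38.p14), were at hand for 27 of the 39 genes, in 43 windows. The E-box searched was CAGGTG, with CACCTG for the other strand. It was in 13 of the 43 windows (30.2%), of 12 genes, against 20.6% of 35116 windows of all genes. A GC box, GGGCGG or CCGCCC, was in 65.1% of the genes' windows and in 45.0% of all windows. The AP-1 motif TGANTCA, which reads the same on both strands, was in 9.3% and 7.71%. The sequences below are those of DSP and CLDN7, which were lower after knockdown in DU145, and of JUP and CLDN4, which were higher in that line. E-boxes are in capitals in DSP, CLDN7 and JUP, and the AP-1 matches are in capitals in CLDN4. A match describes the letters only and shows no binding.

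DSP (chr6:7541421-7541670, plus strand, the 250 bases before the start): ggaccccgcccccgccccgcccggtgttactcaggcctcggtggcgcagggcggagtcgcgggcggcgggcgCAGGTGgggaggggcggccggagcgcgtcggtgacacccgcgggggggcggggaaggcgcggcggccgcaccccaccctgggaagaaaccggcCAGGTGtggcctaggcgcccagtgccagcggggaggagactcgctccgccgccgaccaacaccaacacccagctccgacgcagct
CLDN7 (chr17:7262476-7262505, minus strand, 30 bases across the start): atatactCAGGTGcgcccCACCTGtccgcc
JUP (chr17:41786008-41786037, minus strand, 30 bases before the start): ctggcccCACCTGccgagCAGGTGagcgca
CLDN4 (chr7:73830746-73830995, plus strand, the 250 bases before the start): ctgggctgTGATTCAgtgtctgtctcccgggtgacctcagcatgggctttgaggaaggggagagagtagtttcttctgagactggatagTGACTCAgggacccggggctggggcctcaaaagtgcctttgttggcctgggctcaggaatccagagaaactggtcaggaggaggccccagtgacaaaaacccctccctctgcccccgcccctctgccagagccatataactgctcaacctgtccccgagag

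With the start counted as position 0, the 2 E-boxes of DSP began at -178 and -85, those of the CLDN7 stretch at -20 and -9, and those of JUP at -54 and -43. The CLDN7 and JUP stretches each held 1 E-box in either orientation. The 250 bases of CLDN4 held 0 E-boxes and 2 AP-1 matches, at -242 and -161. Of the genes more than 2-fold lower in DU145 and not printed, CLDN16 had an E-box in its window, and CLDN1, CLDN2 and CLDN11 had none. E-boxes were thus found beside a gene with a higher and genes with a lower signal after knockdown, and not beside every lower gene. AP-1 matches were likewise in the windows of CLDN2 and CLDN16, with log2 ratios after knockdown in DU145 of -1.96 and, as a bound, -1.23, and in that of CLDN15 (0.01).

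Signals are the processed intensities of the scanner, which have no unit, and a log2 ratio compares them after subtracting the 75th percentile of each array on the log2 scale. A gene is called dim on an array where its probe was not well above background, and its fold is then a lower bound. On each of the 4 arrays, 50.8% to 52.6% of the spots that were not controls cleared this background call, and 0 of them were saturated. The only error that could be measured is the spread between spots of 1 probe, with a median SD of the log2 ratio of 0.084 in PC3, 0.082 in DU145 and 0.084 between the lines. Differences between hybridizations or cultures are outside this error.

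ESS2 itself was read at 133 in PC3-shC and 53.6 in PC3-shESS2 cells (log2 ratio -1.45), and at 85.7 in DU145-shC and 17.3 in DU145-shESS2 cells (-2.35). The log2 ratios of GAPDH were 0.18 and 0.04 and those of ACTB 0.15 and -0.04 in PC3 and DU145. The epithelial markers EPCAM, KRT8, KRT18, KRT19 and CDH1 were well above background on all 4 arrays, 5 of 5, with a summed signal of 56460 to 246200. KLK3, a marker of luminal prostate cells, was dim on all 4 arrays. Among markers of other cells, COL1A2, COL3A1, DCN, CD3E and CLDN5 were dim on all 4 arrays. COL1A1, PDGFRB, PTPRC, CD14, VWF and CDH5 were well above background on all 4, and LUM and PECAM1 on the PC3 arrays. The markers past 2-fold after knockdown in PC3 were PECAM1, read at 338 in PC3-shC and 16.4 in PC3-shESS2 cells, CD14, at 221 and 54.7, and LUM, at 9.9 and 48.8, and their part in the results was not tested. In DU145, 0 of these markers of other cells were past 2-fold. The summed signals of the fibroblast, leukocyte and endothelial lists were 62.6 to 412.3. In bulk RNA, fewer cells of a kind and less RNA per cell cannot be told apart.

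Of the 39 genes, 29 were well above background on all 4 arrays. CLDN6, CLDN10, DSG1, DSG3 and DSC1 were dim on all 4. DSG1, DSG3 and DSC1 are desmosomal cadherins best known from the epidermis. The other 5 were measured on 2 arrays. JAM3, DSC3 and CTNNA1 were dim on both PC3 arrays, PKP1 was dim on both DU145 arrays, and CLDN16 was dim on both knockdown arrays.

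**Figure D1:**
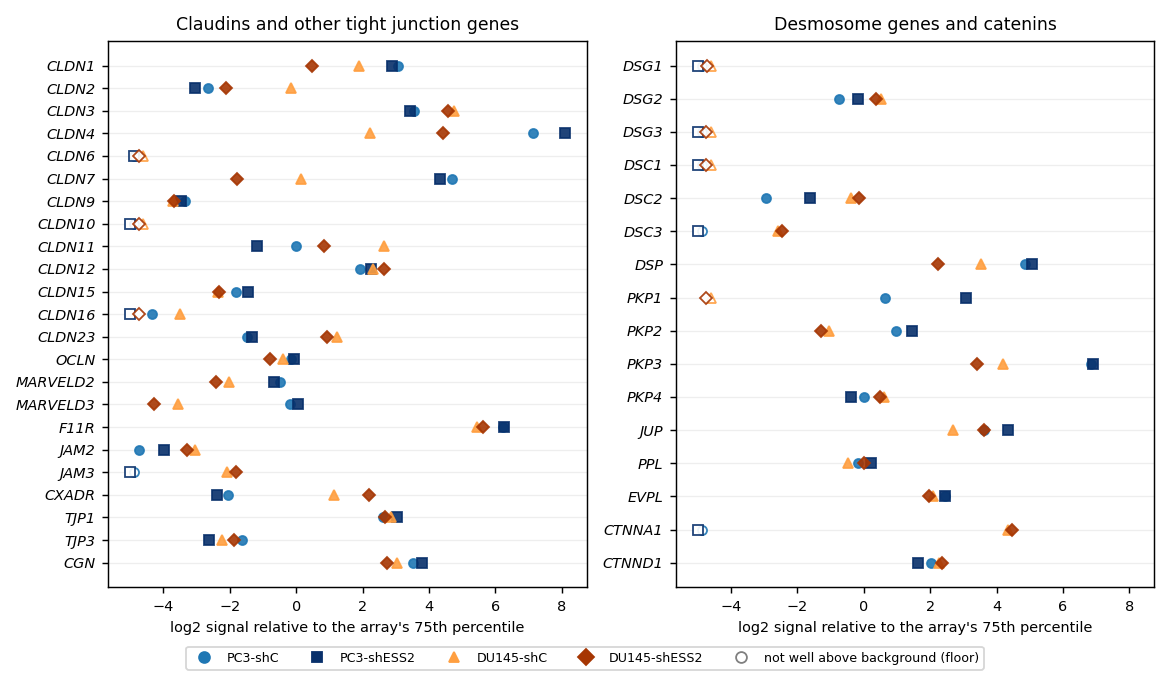
Log2 signal of each gene relative to the 75th percentile of its array (x axis), with 1 point for each of the 4 arrays. Open points are dim and sit at the lowest level measured on that array, or at their own where it is higher. CLDN4, CLDN7, PKP1 and PKP3 lay far higher in PC3 and CTNNA1 far higher in DU145. Positions of different genes come from different probes and are not comparable.

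The lines were set apart first. DU145-shC and PC3-shC cells differed by more than 2-fold in 20 of the 34 genes that could be compared, with claudins on both sides. In DU145-shC cells, 11 genes were more than 2-fold higher and 9 lower, against 19.9% and 22.1% of all 17472 genes compared. These counts were 9 higher and 12 lower after scaling to the array medians, and 13 higher and 7 lower with the authors' scaled values. The median log2 ratio of the 34 genes was -0.28, and that of all genes -0.12. Of all genes past 2-fold, 47.4% were higher in DU145-shC cells, a share that became 27.9% after scaling to the array medians and 68.3% with the authors' scaled values. Cell line, slide and scan cannot be told apart in this comparison.

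The claudins split into 4 higher and 3 lower in DU145-shC cells. CLDN4, a barrier-forming claudin, was read at 36600 and 79300 in PC3-shC and PC3-shESS2 cells and at 983 and 4720 in DU145-shC and DU145-shESS2 cells. Both PC3 signals lay above both DU145 signals, and between the controls CLDN4 was 30.0-fold lower in DU145. CLDN7, a claudin known to associate with EPCAM, was read at 6820 and 5880 in PC3 and at 233 and 62.8 in DU145. Its PC3 signals also lay above those of DU145, and it was 23.6-fold lower in DU145-shC than in PC3-shC cells.

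CLDN1, which seals the epidermal barrier, was read at 2200 and 2130 in PC3 and at 779 and 303 in DU145, and was 2.28-fold lower in DU145-shC cells. The opposite order was seen for CLDN2, CLDN3, CLDN11 and CLDN23. CLDN2, a pore-forming claudin, was read at 41.9 in PC3-shC, 35.4 in PC3-shESS2, 191 in DU145-shC and 50.4 in DU145-shESS2 cells. The DU145 control thus stood apart from the other 3 arrays, with a ratio of 5.66-fold over PC3-shC.

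CLDN11, known from myelin and the testis barrier, was read at 260 and 129 in PC3 and at 1340 and 393 in DU145, and was 6.39-fold higher in DU145-shC cells. CLDN23 was read at 94.2 and 115 in PC3 and at 500 and 415 in DU145, a 6.59-fold difference between the controls. In both genes the 2 DU145 signals lay above the 2 PC3 signals. CLDN3 was read at 3060 and 3140 in PC3 and at 5720 and 5200 in DU145, and was 2.32-fold higher in DU145-shC cells. CLDN3 and CLDN4 are next to each other on chromosome 7 with no coding gene between them, and their log2 ratios between the controls were 1.21 and -4.91.

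Of the remaining claudins, CLDN12, CLDN15, CLDN16 and CLDN9 had log2 ratios of -0.52 to 0.83 between the controls. The dimmer of the CLDN12 probes had 1.66, where the brighter one had 0.39. CLDN9 had 2 probes that went opposite ways, at 26.0, 26.3, 16.3 and 16.9 for the brighter probe and at 13.3, 15.7, 16.2 and 9.64 for the other, where the last value was dim (order PC3-shC, PC3-shESS2, DU145-shC, DU145-shESS2). All of these signals were close to the lowest level measured, which was 8.19 to 9.08.

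Of the 3 MARVEL genes, 2 were more than 2-fold lower in DU145-shC cells. MARVELD2 (tricellulin), which closes the corners where several cells meet, was read at 188 and 182 in PC3 and at 52.4 and 41.3 in DU145, and was 2.89-fold lower in DU145-shC cells. MARVELD3 was read at 233 and 300 in PC3 and at 17.8 and 11.1 in DU145, and was 10.6-fold lower. Both genes were lower on each DU145 array than on each PC3 array, and the other MARVELD3 probe was dim on both DU145 arrays. OCLN (occludin), the gene next to MARVELD2 on chromosome 5, was read at 236 and 277 in PC3 and at 160 and 125 in DU145, and its probes had log2 ratios of -0.25 and 0.04 between the controls. The difference in OCLN was therefore within the disagreement of its probes.

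Among the immunoglobulin-like proteins, F11R (JAM-A) was read at 19900 and 22300 in PC3 and at 9160 and 10800 in DU145, 1.75-fold lower in DU145-shC than in PC3-shC cells. JAM3 was dim on both PC3 arrays and was read at 50 and 62.2 in DU145, at least 6.94-fold higher in DU145-shC cells, a log2 ratio of 2.79. It was 1.04 with normexp background correction, which adds an offset of 50 to all signals. CXADR, the coxsackievirus and adenovirus receptor and a junction protein, was read at 63.5 and 55.9 in PC3 and at 464 and 1000.0 in DU145. It was 9.06-fold higher in DU145-shC cells, a log2 ratio of 3.18, with 3.60 for its other probe. JAM2 was read at 9.9, 18.4, 25.7 and 22.1 in the array order above, a 3.22-fold difference between the controls that rests on 1 of 3 probes. Its other probes were dim on 4 and on 3 of the arrays.

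With 75th percentile scaling, none of the 3 tight junction plaque genes was past 2-fold between the controls, and TJP3 was past it, at -1.054, with scaling to the median. TJP1 (ZO-1), the scaffold of the strands, was read at 1600 and 2380 in PC3 and at 1520 and 1400 in DU145. CGN (cingulin) was read at 2990 and 3980 in PC3 and at 1740 and 1460 in DU145. Their log2 ratios between the controls were 0.24 and -0.47, and that of TJP3 was -0.60. The sign for TJP1, CLDN12 and CTNND1 turned when arrays were scaled to their medians.

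In the desmosome, all 3 cadherins that could be compared were more than 2-fold higher in DU145-shC cells. Of 8 plaque genes, 4 were more than 2-fold lower and 0 higher. Over all genes compared, 19.9% were more than 2-fold higher and 22.1% lower. DSC2 was read at 34.3 and 93.7 in PC3 and at 161 and 198 in DU145, and was 5.82-fold higher in DU145-shC cells. DSG2, the desmoglein of simple epithelia, was read at 155 and 255 in PC3 and at 304 and 281 in DU145, a 2.43-fold difference between the controls. DSC3 was dim in PC3 and read at 35.4 and 39.6 in DU145, at least 4.91-fold higher, but its other probe was dim on all 4 arrays. DSC2, DSC3 and DSG2 lie in 1 run of cadherin genes on chromosome 18 together with the dim DSC1, DSG1 and DSG3.

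The plakophilins PKP1, PKP2 and PKP3 bind DSP at the plaque. PKP3 was read at 30200 and 34500 in PC3 and at 3890 and 2290 in DU145, 6.26-fold lower in DU145-shC cells. PKP2 was read at 512 and 791 in PC3 and at 102 and 88.3 in DU145, 4.05-fold lower. PKP1 was read at 409 and 2460 in PC3 and was dim on both DU145 arrays, at least 38.1-fold lower in DU145-shC cells. This bound depends on the floor for dim signals, and its log2 ratio of -5.25 was -2.65 with normexp. The PC3 signals of these 3 genes lay above their DU145 signals, and the share of all genes separated in this way was not counted. PKP4, with the probe used, lay the other way, at 266 and 223 in PC3 and at 322 and 303 in DU145.

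DSP was read at 7590 and 9650 in PC3 and at 2450 and 1030 in DU145, and was 2.50-fold lower in DU145-shC cells, or 1.70-fold with its other probe. JUP, which both desmosomes and adherens junctions use, was read at 3210 and 5910 in PC3 and at 1350 and 2650 in DU145, 1.92-fold lower. PKP4, PPL and EVPL had log2 ratios of 0.59, -0.31 and -0.37.

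CTNNA1 was dim on both PC3 arrays, at 2.21 and 2.27, and was read at 4320 and 4810 on the DU145 arrays. DU145-shC cells were thus at least 599.5-fold above PC3-shC cells, and at least 50.9-fold with the other probe. The log2 ratio of 9.23 was 6.23 with normexp. PC3 cells are known to have lost this gene. Of the neighbouring coding genes, SIL1 was also dim on both PC3 arrays and was read at 238 and 321 in DU145, whereas HSPA9 was read at 4780 and 2980 and MATR3 at 2270 and 1260 in PC3-shC and DU145-shC cells. CTNND1 was read at 1060, 900, 1020 and 1120 in the array order above, and its other probe at 66.5, 96.1, 43.4 and 44.2. The CTNND1 probes went opposite ways between the controls, with log2 ratios of 0.26 and -0.30.

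**Figure D2:**
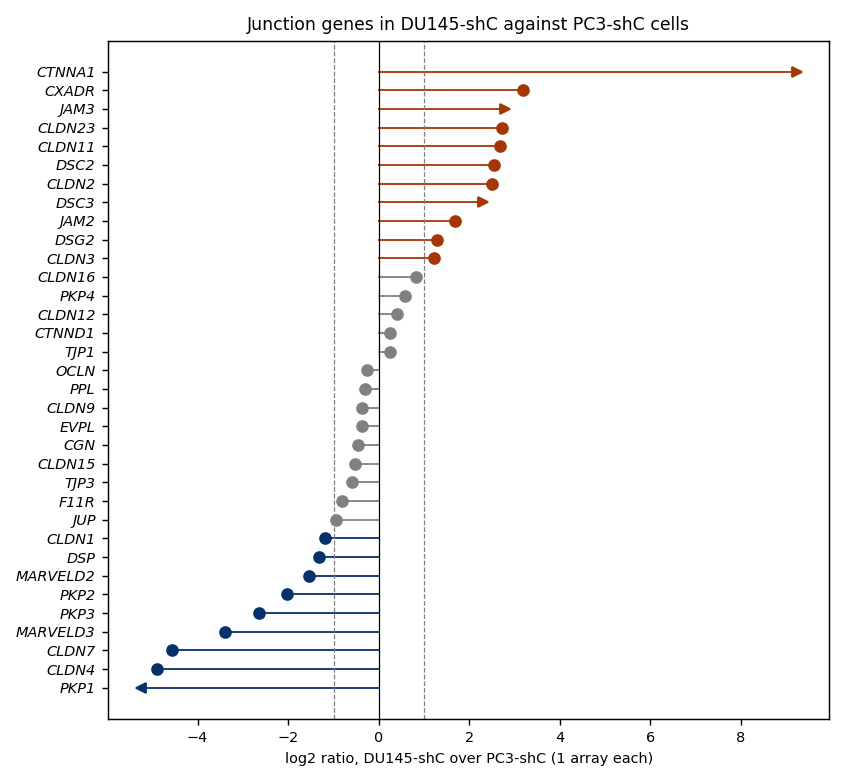
Log2 ratio of DU145-shC over PC3-shC for the 34 genes that could be compared (x axis), 1 array each, in order of the ratio. Arrowheads are lower bounds of genes dim on 1 array and dashed lines mark 2-fold. The 11 genes at the top and the 9 at the bottom are past 2-fold, from CTNNA1 at 9.23 to PKP1 at -5.25.

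A fit over all 4 arrays (limma, with cell line and shRNA as terms and 1 residual degree of freedom) gave the line difference averaged over both shRNAs. At an adjusted p below 0.05, 12 of the 34 genes were higher and 11 lower in DU145, against 23.8% and 28.4% of 17124 genes tested. These were the genes past 2-fold between the controls and also PKP4, higher, and F11R and JUP, lower. CTNNA1, JAM3, DSC3 and PKP1 entered the fit only through the line where they were measured, with both arrays of the other line at the floor. Their calls were thus largely set by that filter. CLDN7 had a log2 difference of -5.35 (SE 0.44, adjusted p = 0.00411, limma), CLDN4 -4.28 (SE 0.37, adjusted p = 0.00434, limma) and PKP3 -3.07 (SE 0.28, adjusted p = 0.00485, limma). CXADR had 3.88 (SE 0.40, adjusted p = 0.0058, limma), CLDN23 2.49 (SE 0.21, adjusted p = 0.00433, limma) and CLDN11 2.35 (SE 0.24, adjusted p = 0.00587, limma). TJP1 had -0.06 (SE 0.23, adjusted p = 0.846, limma). Leaving out 1 array left a line with 1 array, so no counts are given for such fits. The spread in the fit over all 4 arrays comes from the shRNA effect differing between lines, and the labels name no separate cultures.

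Between the PC3 knockdown and control arrays, 12.9% of these genes were past 2-fold, against 7.75% of all genes. Of 31 genes compared, PKP1 and DSC2 (2 genes) were higher in PC3-shESS2 cells by more than 2-fold, against 3.88% of 16761 genes. CLDN11 and TJP3 were more than 2-fold lower, against 3.87%. The median log2 ratio was 0.09, beside -0.06 over all genes. Of all genes past 2-fold, 50% were higher, or 38.9% after scaling to the array medians and 59.7% with the authors' scaled values.

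PKP1, a plakophilin known from stratified epithelia, was 5.46-fold higher in PC3-shESS2 than in PC3-shC cells. Its other probe was read at 379 and 2420, which is 5.79-fold. DSC2 was 2.48-fold higher. Both genes are desmosomal. Ratios above 0 were found for 7 of 8 plaque genes and both measured cadherins, beside 7428 of all 16761 genes. Of these, PKP3 (0.05) and EVPL (0.00) lay within the spread between spots and turned below 0 when arrays were scaled to their medians. JUP had a log2 ratio of 0.74, DSG2 of 0.58, PKP2 of 0.49 and DSP of 0.21.

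CLDN11 was 2.22-fold lower in PC3-shESS2 cells. TJP3, the plaque gene ZO-3, was read at 85.1 and 46.9 in PC3 and at 45.3 and 59.9 in DU145. It lay on the threshold in PC3, with a log2 ratio of -1.0006. CLDN4 lay just inside on the other side, at 1.97-fold higher in PC3-shESS2 cells. CLDN16 was read at 13.0 in PC3-shC and was dim in PC3-shESS2 cells, at least 1.59-fold lower. The other claudins had log2 ratios between -0.38 and 0.37 with the probes used, and the dimmer CLDN12 probe had 0.895. TJP1, OCLN and F11R had ratios of 0.43, 0.09 and 0.02. In 4 of the 10 genes with several measured probes (CLDN9, CTNND1, CXADR and OCLN) the probes went opposite ways in PC3.

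In DU145 the knockdown differences lay mainly in the claudins. Of 33 genes compared, 2 were more than 2-fold higher in DU145-shESS2 cells, CLDN4 and CXADR, against 2.36% of 16839 genes. The 6 genes more than 2-fold lower were CLDN1, CLDN2, CLDN7, CLDN11, CLDN16 and DSP, against 2.47%. The median log2 ratio was -0.15, beside -0.02 over all genes. Among the claudins alone, 5 of 11 were lower and 1 higher past 2-fold.

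CLDN2 was 3.90-fold lower in DU145-shESS2 than in DU145-shC cells, CLDN7 3.82-fold, CLDN11 3.51-fold and CLDN1 2.64-fold. With normexp background correction the log2 ratios of CLDN2 and CLDN7 were -1.24 and -1.27, in place of -1.96 and -1.93. CLDN16 went from 18.6 to a dim signal, at least 2.35-fold lower. CLDN4 went the other way and was 4.67-fold higher. CLDN3, the neighbour of CLDN4, had a log2 ratio of -0.18, and CLDN23 had -0.31. EPCAM, the partner of CLDN7, was read at 2120 in DU145-shC and 357 in DU145-shESS2 cells, 6.11-fold lower, and at 30700 and 26100 in PC3. The other epithelial markers had log2 ratios of -0.03 to 0.28 in DU145.

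DSP was 2.45-fold lower in DU145-shESS2 cells, and 2.35-fold with its other probe. It was the only desmosome gene past 2-fold in DU145. PKP3 had a log2 ratio of -0.80, JUP of 0.93 and PPL of 0.48. The 3 measured cadherins had ratios of -0.15 to 0.26, and the 3 MARVEL genes of -0.72 to -0.38. CXADR was 2.10-fold higher, or 1.83-fold with its other probe, so its call depends on the probe. TJP1 had a ratio of -0.16, CTNNA1 of 0.11 and F11R of 0.20. Of the 8 genes with several measured probes, CTNND1 had probes that went opposite ways, at 0.09 and -0.01.

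CLDN11 was past 2-fold lower in both lines, with log2 ratios of -1.15 and -1.81, but had -0.88 in PC3 with normexp background correction. CLDN4 had 0.97 in PC3 and 2.22 in DU145, and its PC3 ratio passed 2-fold with quantile normalization (1.13) and with the authors' scaled values (1.06). JUP had 0.74 and 0.93. CLDN1, CLDN2 and CLDN7 had ratios of -0.19, -0.38 and -0.35 in PC3, where DU145 had -1.40, -1.96 and -1.93. Whether the lines differ in these responses was not tested, as each line has 1 array per condition. CLDN16 was dim after knockdown in both lines.

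**Figure D3:**
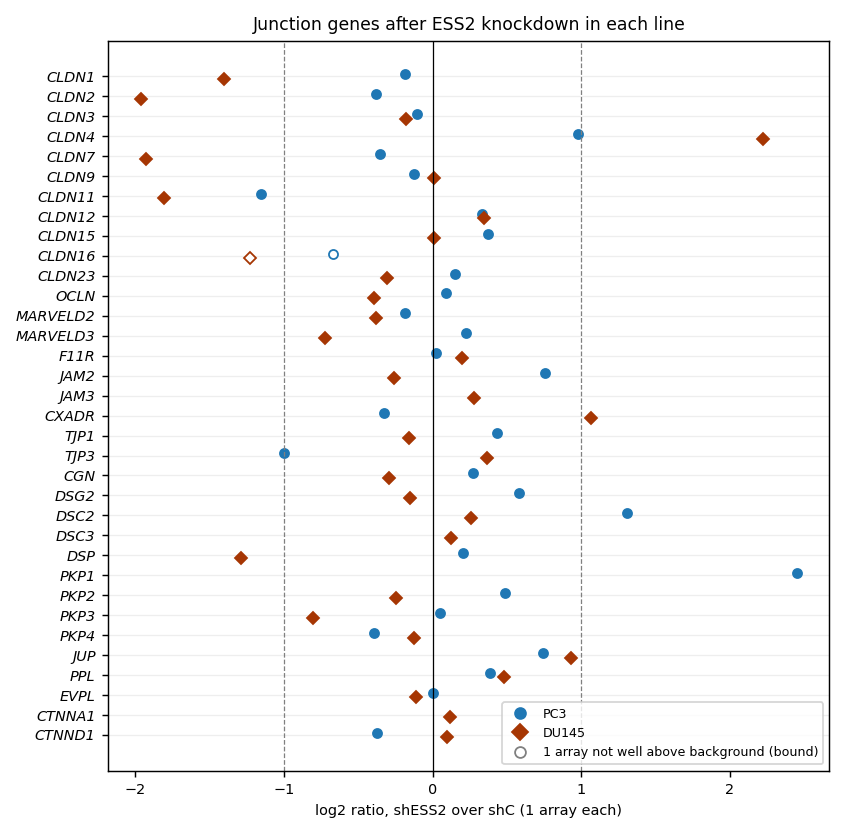
Log2 ratio of shESS2 over shC for each gene (x axis), with circles for PC3 and diamonds for DU145, 1 array each, and dashed lines at 2-fold. Open points are bounds where 1 array was dim. CLDN1, CLDN2, CLDN7, CLDN11, CLDN16 and DSP lie left of the line at -1 in DU145, and PKP1 lies far to the right in PC3.

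The fit over all 4 arrays gave 0 of the 34 genes an adjusted p below 0.05 for ESS2 knockdown, as for all genes tested (0.0% of 17124, smallest adjusted p = 0.746, limma). At an unadjusted p below 0.05 there were 4 of the 34 genes (11.8%), CLDN4, CLDN11, CLDN16 and JUP, beside 6.11% of all genes. CLDN11 had a log2 difference of -1.48 (SE 0.24), CLDN4 of 1.599 (SE 0.37), CLDN16 of -0.95 (SE 0.23) and JUP of 0.84 (SE 0.18), each with an adjusted p of 0.746 (limma). Those for CLDN16 rest on dim values.

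Other genes of the same contacts were counted from lists of the same pathways. Between the controls, 19.9% of all genes compared were more than 2-fold higher in DU145-shC cells and 22.1% lower. Of 12 adherens junction genes compared, 7 were more than 2-fold lower in DU145-shC cells and 1 was higher. CDH1 (E-cadherin) had a log2 ratio of -5.28, CDH3 of -1.50, VCL (vinculin) of -1.21 and AFDN (afadin) of 1.10. Of the gap junction genes, GJA1 was read at 2700 in PC3-shC and 13.4 in DU145-shC cells, and GJB2 at 4650 and 38.2. Of 13 polarity genes, 3 were higher and 2 lower, with CRB3 (crumbs) at -2.25 and MPDZ at 2.13. Of 13 other tight junction genes, 5 were higher and 2 lower, with CLMP at -3.59 and AMOT at 2.10. Of 4 other desmosome and cornified envelope genes 1 was lower, PERP at -1.77, and of 2 other claudins 0 were past 2-fold.

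The transcription factors known to act on junction genes included 5 of 11 lower and 1 higher in DU145-shC cells, against 22.1% and 19.9% of all genes. ZEB1, a repressor of epithelial genes, was read at 30.4 and 104 in PC3 and at 737 and 948 in DU145. OVOL2, an epithelial factor known to oppose ZEB1, was read at 2390 and 3970 in PC3 and at 106 and 14.7 in DU145. SNAI2 was read at 291 and 680 in PC3 and at 9.75 in DU145-shC cells, with a log2 ratio of 0.27 between the DU145 arrays. ZEB1 was thus higher on both DU145 arrays, and OVOL2 and SNAI2 were higher on both PC3 arrays. KLF5 had a log2 ratio of -2.63.

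After knockdown in PC3, 4 of 11 of these factors were more than 2-fold higher and 0 lower, against 3.88% and 3.87% of all genes. The log2 ratios were 1.63 for ZEB1, 1.40 for TWIST1, 1.10 for OVOL1 and 1.08 for SNAI2. In DU145, OVOL2 was 7.42-fold lower and KLF5 2.32-fold higher, and these were the only factors of 10 past 2-fold. Over all genes in DU145, 2.36% were more than 2-fold higher and 2.47% lower. Of the adherens junction and polarity genes, 0 were past 2-fold in either line. Of the other tight junction genes, 2 of 14 were higher and 1 lower past 2-fold in PC3, with MAGI3 at 1.07, and 0 of 13 in DU145. GJB2 had a log2 ratio of -0.74 in PC3 and of -1.50 in DU145. SPRR1B, a cornified envelope gene, was read at 11.8 in PC3-shC and 80.4 in PC3-shESS2 cells, a log2 ratio of 2.63. CLDN14 was dim in PC3-shC and was read at 66.4 in PC3-shESS2 cells, at least 6.74-fold higher. It is named here because it was the only claudin outside the 39 genes past 2-fold, and was chosen after its values were seen.

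**Figure D4:**
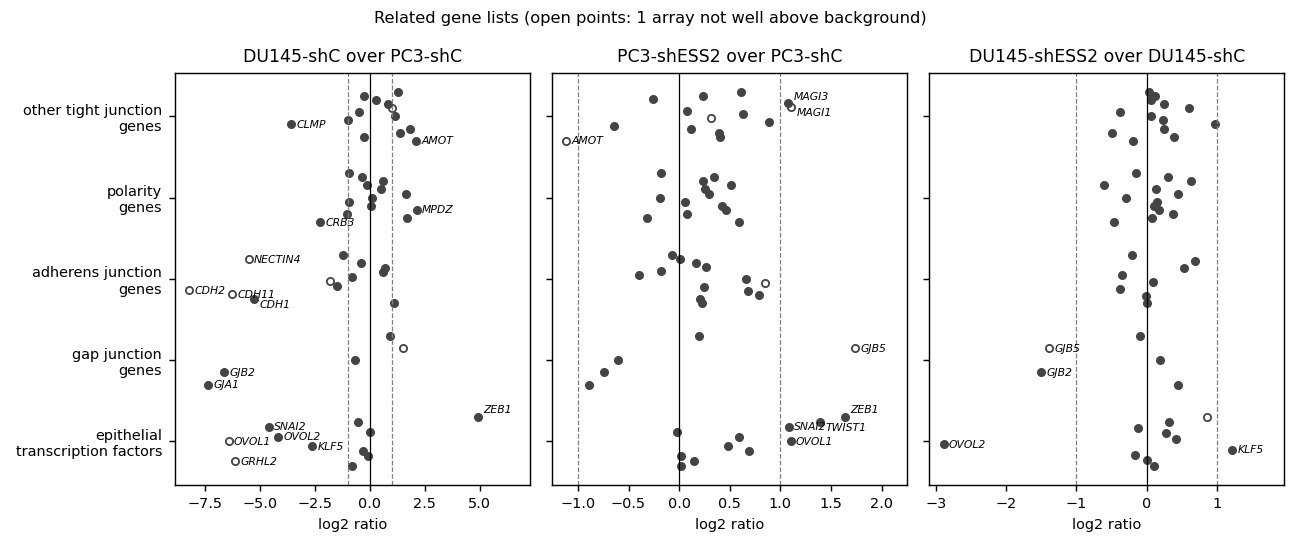
Log2 ratios (x axes, which differ in scale) of 5 related gene lists between the controls and after ESS2 knockdown in PC3 and in DU145, with 1 point per gene compared and reported here, and 1 array per condition. Open points are bounds, and genes past 4-fold between the controls or past 2-fold after knockdown are named. Factors such as ZEB1 (4.91) and OVOL2 (-4.18) stand apart between the controls.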

How the data were processed

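Total RNA of 4 conditions, 1 array each, was labelled with Cy3 from 0.1 µg and hybridized to Agilent human arrays. The deposited intensity values are processed signals, which the authors obtained with Agilent Feature Extraction (12.1.0.3 for PC3 and 12.0.3.1 for DU145), with background subtracted and no scaling between arrays. The authors' series table holds the same intensity values times 1 constant per array (maximum deviation 0.499%). The DU145 knockdown is described by the sample labels alone. For PC3 the paper states plasmid transfection and puromycin selection, where the labels state lentiviral transduction.

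Control spots and outlier spots were left out, spots of 1 probe were averaged, and log2 signals were scaled to the 75th percentile. The probe with the highest mean stood for a gene. A gene was compared when either of the 2 arrays had it well above background, and dim values were raised to the lowest signal well above background. Accessions were matched to RefSeq symbols for 35076 of 58201 probes, and 23125 were unmatched. The files carry 2 annotation releases, and no probe of the 39 genes had another symbol in the older one. No test was made between single arrays. limma 3.58.1 was fitted over the genes with 2 or more arrays well above background, and p-values were adjusted by Benjamini-Hochberg over all of them. The scripts were tested on simulated data. Python 3.11.15, numpy 2.4.6, pandas 2.3.3, matplotlib 3.10.9 and R 4.3.3 were used.

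The genes and lists were chosen with earlier results of these data known, and some genes of the related lists are not reported here. Values on every array are given for genes past 2-fold in any comparison, for TJP1, OCLN, F11R, DSP, JUP, CTNNA1 and CTNND1, and where probes disagreed. From each related list up to 4 genes with the largest difference are named, among those well above background on both arrays with probes in 1 direction. Alternatives were quantile normalization, scaling to the median, normexp (offset 50, on median spot signals), other filters and values for dim genes, the mean of the probes, each probe, outlier spots kept, the authors' scaled values, dropped terms and arrays left out.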

Additional observations from a re-analysis of the deposited data

Results flagged for a closer look

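The ratios of 4 genes went opposite ways after ESS2 knockdown in the 2 lines, by more than 2-fold on the difference, and the difference was not tested. DSP had a log2 ratio of 0.21 in PC3 and -1.29 in DU145, a difference (PC3 minus DU145) of 1.496. CXADR had -0.32 and 1.07, a difference of -1.39, and the PC3 ratio of its other probe was 0.16. TJP3 had -1.0006 and 0.36, a difference of -1.36. JAM2 had 0.75 and -0.26, a difference of 1.01, at signals of 9.9 to 25.7 close to background.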

How the results depend on the processing

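No gene past 2-fold changed direction under any alternative run. In PC3, scaling to the median gave a median log2 ratio of -0.013 for the 31 genes and the authors' scaled values gave 0.18. Genes more than 2-fold lower in PC3 numbered 1 with quantile normalization, 1 with the authors' values and 0 with normexp, and normexp left 1 gene higher. Quantile normalization and the authors' values each gave 3 genes higher in PC3, as CLDN4 passed 2-fold. TJP3 fell short of 2-fold in all 3 of these settings (lowest size -0.54), and CLDN11 (-0.88) and DSC2 (0.60) with normexp. In DU145, normexp and the mean of the probes each left 1 gene higher, as CXADR came to 0.97 in both, and normexp gave a median of -0.052 and a CLDN16 ratio of -0.24, where the plain signal of dim probes gave -2.59. Between the controls, the median of the genes was -0.74 with scaling to the median, -0.054 with quantile normalization, -0.046 with normexp, 0.0007 with no filter, -0.065 with the mean of the probes, -0.10 with each probe and 0.17 with the authors' values. The median of all genes moved from -0.12 to -0.58 with scaling to the median and to 0.33 with the authors' values, so changes between lines hold relative to that shift. CLDN1 and DSP came under 2-fold with quantile normalization and the authors' values, CLDN3 and DSG2 with scaling to the median, JAM2 with the mean of the probes (0.74), and JAM2, MARVELD2, DSC3 and DSG2 with normexp. Genes that came past 2-fold were F11R (-1.26), JUP (-1.39) and TJP3 (-1.054) with scaling to the median, CLDN16 (1.28) and PKP4 (1.04) with the authors' values and CLDN12 (1.02) with the mean of the probes. Of genes that stayed past 2-fold, normexp gave 1.64 for CLDN2, 2.02 for CLDN23, 2.28 for CXADR, 1.41 for DSC2 and -1.80 for MARVELD3, the plain signal of dim probes 11.24 for CTNNA1, 4.93 for JAM3, 4.27 for DSC3 and -7.19 for PKP1, and the mean of the probes 7.45 for CTNNA1 and 1.28 for DSC3. In the limma fit of the line difference, no filter gave 7 genes higher and 7 lower, and the share of all genes called in that setting is not reported here. Leaving out 1 array left a line with 1 array, so those counts are not given. CLDN3, CLDN4, CLDN7, CLDN23, MARVELD2, MARVELD3, CXADR, PKP2 and PKP3 were called in every setting, and F11R, JUP, PKP4, JAM2 and DSG2 in 6 of 14. The 14 settings include fits that left 1 array in a line. JAM3, DSC3, PKP1 and CTNNA1 were also called in every setting that could test them. They entered the main fit only through the line where they were high, so their calls were largely set by the filter. The knockdown fit called 0 of these genes throughout. The causes were not tested. The limma fit already compares the arrays within each line through its cell line term, and without that term it also called 0 of these genes for knockdown. The labels give no replicate numbers to pair by. Signals near 8.19 to 9.08, the lowest well above background, limit CLDN9, CLDN16, JAM2 and MARVELD3 in DU145.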
